A study of Mus musculus with 32 samples.

Results

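In RADICL-seq, RNA in crosslinked nuclei is joined by an adapter to the DNA next to it, and sequencing then reads a short tag of the RNA and one of the DNA. Described here are the interactions whose RNA tag lay in a short interspersed element (SINE) of the B2 or B4 family, chosen by the repeat family and class that the study attached to each RNA tag. These were 643574 of 25231081 listed interactions, or 2.55%, in 15 libraries, with 5259 to 77327 per library out of 251802 to 2832717. The comparison set was the 22391945 interactions, or 88.7%, whose RNA tag carried no repeat, here called repeat-free. The families hold 9 repeat names: B2-Mm1a, B2-Mm1t, B2-Mm2, B3 and B3A in the B2 family, and B4, B4A, ID-B1 and RSINE1 in the B4 family.

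The libraries came from R08, a male mouse embryonic stem cell line (mESC), and from Oli-neu, a line used as a model of oligodendrocyte progenitor cells (mOPC). mESC were crosslinked with 1% formaldehyde (mESC 1FA, 3 libraries) or 2% formaldehyde (mESC 2FA, 3 libraries), or treated for 4 h with 5 µg/ml actinomycin D, which blocks transcription, and then crosslinked (mESC ActD4, 2 libraries). mOPC were crosslinked with 1% formaldehyde (mOPC 1FA, 3 libraries). Proteins were removed ahead of the RNA ligation in 2 mESC and 2 mOPC libraries named NPM (non-protein-mediated), which lowers contacts held by protein. Each cell type was 1 cultured line, so differences between them are differences between these lines. The files list only interactions that the study called significant, with the replicates pooled, so a listed 0 is not an absence, the totals are not sequencing depth, and the spread between replicates is understated. Since cells were lysed in bulk, fewer cells carrying an RNA and less of it per cell cannot be told apart.

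B2 elements derive from tRNA genes and carry an internal promoter for RNA polymerase III, with A and B boxes near their 5′ end. B4 elements join a tRNA-like head to a tail related to B1, another mouse SINE. Both families are common in introns, where a copy is carried along in the pre-mRNA of its host gene. B2 RNA made by polymerase III is known for binding RNA polymerase II and lowering transcription after heat shock. An RNA tag inside a copy can come from either kind of transcript, and the sense of the copy is that of the RNA: every repeat listed for an RNA tag lay on the strand of the tag, so a tag inside a copy of opposite orientation was listed as repeat-free.

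The copies that collected the most interactions are shown first, because they tell what a B2 or B4 RNA tag is in sequence. They are printed 5′ to 3′ on the RNA strand from the GRCm38 (mm10) genome, and the capitals mark the up to 27 bases centred on the commonest tag position. All of them lay in introns. The 3 copies with the most interactions in mESC 1FA belonged to the B4 family and the 3 in mOPC 1FA were B4A or B3.
ID-B1 in Cmip, chr8:117270990-117271215, plus strand: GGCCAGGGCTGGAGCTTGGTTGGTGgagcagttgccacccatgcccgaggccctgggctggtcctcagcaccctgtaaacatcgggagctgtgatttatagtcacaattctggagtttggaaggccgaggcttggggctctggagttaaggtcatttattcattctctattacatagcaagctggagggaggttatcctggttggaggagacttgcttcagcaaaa
B4A in Fgfr2, chr7:133049837-133050043, minus strand: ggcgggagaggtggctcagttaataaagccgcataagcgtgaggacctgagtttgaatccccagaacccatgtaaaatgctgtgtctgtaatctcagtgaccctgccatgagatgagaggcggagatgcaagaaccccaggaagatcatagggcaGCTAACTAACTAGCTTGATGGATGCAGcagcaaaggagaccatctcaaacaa
B4A in Fgfr2, chr7:133070197-133070337, minus strand: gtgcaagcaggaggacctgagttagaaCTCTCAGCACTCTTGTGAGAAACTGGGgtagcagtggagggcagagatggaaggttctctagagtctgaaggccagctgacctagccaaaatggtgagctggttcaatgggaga
B4A in 2610035D17Rik, chr11:113155105-113155372, minus strand: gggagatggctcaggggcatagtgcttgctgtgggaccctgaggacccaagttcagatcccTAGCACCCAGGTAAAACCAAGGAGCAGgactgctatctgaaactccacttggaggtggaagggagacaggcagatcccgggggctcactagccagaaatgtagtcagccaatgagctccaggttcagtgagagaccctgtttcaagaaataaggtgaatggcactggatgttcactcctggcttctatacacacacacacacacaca
B3 in 5031425E22Rik, chr5:23424752-23424955, minus strand: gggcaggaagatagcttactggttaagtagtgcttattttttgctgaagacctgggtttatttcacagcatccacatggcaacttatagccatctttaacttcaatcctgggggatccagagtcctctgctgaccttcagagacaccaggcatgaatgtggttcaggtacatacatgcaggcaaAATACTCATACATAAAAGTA
B3 in Ppp1cb, chr5:32469708-32469883, plus strand: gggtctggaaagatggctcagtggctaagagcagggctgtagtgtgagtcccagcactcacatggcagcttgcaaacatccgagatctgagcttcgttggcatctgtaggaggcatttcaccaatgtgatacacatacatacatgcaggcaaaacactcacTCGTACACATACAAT

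The Cmip copy had 123, 90 and 111 interactions in the mESC 1FA libraries and 18, 29 and 10 in the mOPC 1FA libraries. It met 195 different 25-kb bins of DNA in mESC 1FA, and 82.1% of its tags were centred within 13 bases of one position near its 5′ end. The groups did not overlap. This copy and the 2 Fgfr2 copies were chosen for their counts in mESC 1FA, so their values are a description. The 2 Fgfr2 copies had 100, 92 and 128 interactions and 116, 81 and 98 interactions in mESC 1FA, against at most 10 per library in mOPC 1FA. Both also lie inside Ctbp2 on the same strand, so their host cannot be told apart by position. Of the 320 interactions of the first of them, 168 were at a single tag position.

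The 3 mOPC copies had few interactions in mESC 1FA. The 2610035D17Rik copy had 79, 85 and 65 interactions in mOPC 1FA and 7, 2 and 0 in mESC 1FA. The 5031425E22Rik copy had 69, 68 and 88 against 1, 1 and 2. The Ppp1cb copy had 67, 87 and 46 against 5, 1 and 2. In each of these 3 the lines did not overlap, and since the copies were chosen for their counts in 1 line these values are a description. Contacts of these 6 copies reached far along their own chromosome: the median distance to the DNA tag in the group that ranked them was 1018 kb for the Cmip copy, 2987 and 2705 kb for the Fgfr2 copies, 1434 kb for the 2610035D17Rik copy, 1851 kb for the 5031425E22Rik copy and 749 kb for the Ppp1cb copy. Over all B2 and B4 tags the median in the 1FA libraries was 88159 to 126329 bases.

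Such copies were rare. The 1FA libraries held 77133 distinct copies, 58734 in mESC and 49069 in mOPC, and 30670 were seen in both lines, which is 52.2% of the mESC copies and 62.5% of the mOPC copies. In each mESC 1FA library 55.0% to 58.6% of the copies had 1 interaction, and in each mOPC 1FA library 64.3% to 64.8%. The 1% of copies with the most interactions held 7.40% to 8.65% of the B2 and B4 interactions of an mESC 1FA library and 9.20% to 9.74% of an mOPC 1FA library.

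B2 and B4 RNA tags took a larger share of the listed interactions in mESC than in mOPC. They made up 2.61%, 2.66% and 2.73% of the mESC 1FA libraries (2.67% ± 0.0623, SD, n = 3) and 2.22%, 2.28% and 2.45% of the mOPC 1FA libraries (2.315% ± 0.116, SD, n = 3). All 3 mOPC libraries were below all 3 mESC libraries, and the difference was -0.351 percentage points. The exact permutation test gave p = 0.1, the smallest that 3 against 3 libraries allow.

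**Figure D1:**
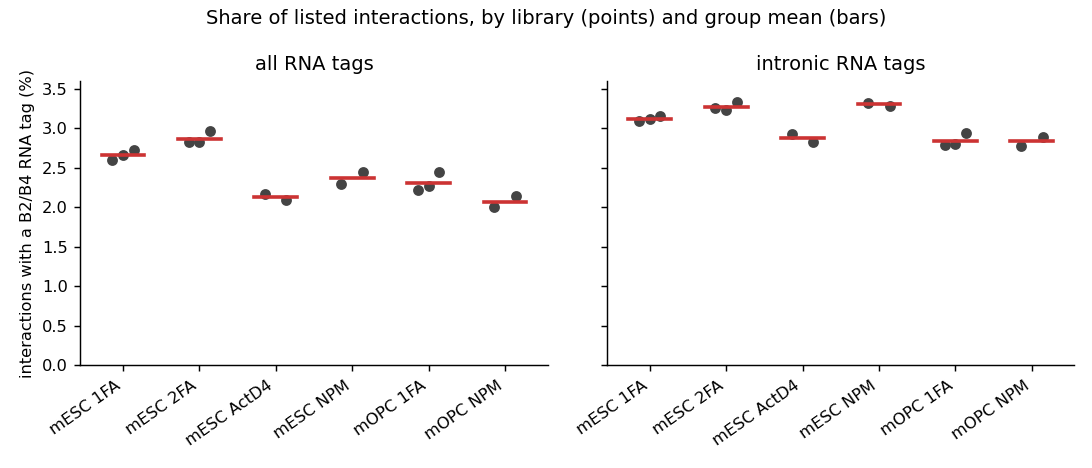
Share of listed interactions whose RNA tag lay in a B2 or B4 SINE, in percent, for each library (points) with group means (bars), over all RNA tags (left) and over intronic RNA tags (right). Among all tags mOPC 1FA (mean 2.315%) lies below mESC 1FA (mean 2.67%), and among intronic tags mESC NPM (mean 3.30%) lies above mESC 1FA (mean 3.12%) rather than below.

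In mESC 2FA the share was 2.83%, 2.83% and 2.96%, a difference of 0.207 points from 1FA with no overlap (exact permutation p = 0.1, again the smallest possible). That test treated the libraries as unpaired, though replicate numbers pair the 1FA and 2FA samples. By number, 2FA was above 1FA in each pair. Actinomycin D was accompanied by the lowest shares in mESC, 2.17% and 2.09%, a difference of -0.537 points. The NPM libraries were below their 1FA counterparts, at 2.30% and 2.45% in mESC (difference -0.290) and 2.00% and 2.15% in mOPC (difference -0.241). Without contacts with the own gene these differences were -0.989 and -1.63 points. They rested on 238 and 652 B2 and B4 interactions in mESC NPM (1.31% and 1.98%) and 350 and 367 in mOPC NPM. Of pairs of a transcript and a bin, the share with at least 1 B2 or B4 tag was above that of 1FA, by 6.91 and 11.5 points. That is another measure, since it rises with the number of interactions per pair, which was higher in the NPM libraries. Over all interactions none of these 3 groups overlapped its 1FA group, and the exact permutation test gave p = 0.2 for each, the smallest that 2 against 3 libraries allow. The Benjamini-Hochberg value over the 5 comparisons was 0.2 for each.

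These shares moved with the part of the transcript from which RNA tags came. Among intronic tags alone, a comparison chosen after the data were seen, B2 and B4 tags made up 3.12% of mESC 1FA, 3.28% of mESC 2FA, 2.88% of mESC ActD4, 3.30% of mESC NPM, 2.85% of mOPC 1FA and 2.84% of mOPC NPM. The mESC NPM group was then above mESC 1FA by 0.181 points, and the mOPC NPM and 1FA groups overlapped with a difference of -0.0102 points (exact permutation p = 0.8). mOPC 1FA remained below mESC 1FA, by -0.277 points and without overlap. Among protein-coding transcripts that difference was -0.182 points and the lines overlapped (exact permutation p = 0.2).

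Nearly all listed B2 and B4 tags were intronic. Interactions were called per annotated transcript, so tags from copies outside genes are not part of these shares. Introns held 95.0% to 95.2% of them in mESC 1FA and 94.9% to 95.5% in mOPC 1FA, against 81.6% to 84.9% and 74.2% to 77.6% of repeat-free tags. Coding sequence held 0.0146% to 0.0308% of the B2 and B4 tags of the 1FA libraries, and 2.85% to 7.27% of repeat-free tags. In the NPM libraries 91.5% to 92.6% of B2 and B4 tags were intronic, while only 61.9% to 67.5% of repeat-free tags were. The gap between the sets was therefore widest in these libraries.

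Hosts were mostly protein-coding genes. Long noncoding RNAs hosted 2.05% to 2.11% of the B2 and B4 tags of mESC 1FA and 4.93% to 5.05% of those of mOPC 1FA. Repeat-free tags came from long noncoding RNAs in 3.80% to 5.07% and 16.9% to 19.1% of cases. Intronic B2 and B4 tags came from shorter genes than intronic repeat-free tags, with a median gene length of 90.8 to 94.3 kb against 115 to 118 kb in mESC 1FA and of 117 to 122 kb against 158 to 163 kb in mOPC 1FA. They also lay further along their gene, at a median of 45.7% to 45.8% of its length against 42.7% to 43.3% in mESC 1FA, and at 48.4% to 49.0% against 43.1% to 43.8% in mOPC 1FA.

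The distance from the RNA tag to its DNA tag differed between B2 and B4 tags and repeat-free tags in 4 of 5 distance classes over the 6 1FA libraries. B2 and B4 tags had 31.7% of their interactions at 10 to 100 kb against 27.2% (difference 4.56 points, higher in 6 of 6 libraries) and 39.8% at 100 kb to 1 Mb against 36.4% (3.40 points, higher in 6 of 6). They had 11.7% beyond 1 Mb on the same chromosome against 13.2% (-1.51 points, lower in 6 of 6) and 0.158% on other chromosomes, called trans, against 7.85% (-7.69 points, lower in 6 of 6). Without the noncoding RNAs Malat1 and Gm22973 these 4 differences were 2.37, 0.62, -2.51 and -0.48 points. With all transcripts, for these 4 classes the exact sign-flip permutation test gave p = 0.03125, the smallest that 6 libraries allow, and an adjusted value of 0.0391, which with 6 libraries can be reached only where at least 4 of the 5 classes have that p. Within 10 kb the means were 16.6% and 15.4%, a difference of 1.24 points that was positive in the 3 mOPC libraries alone (exact permutation p = 0.25).

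**Figure D2:**
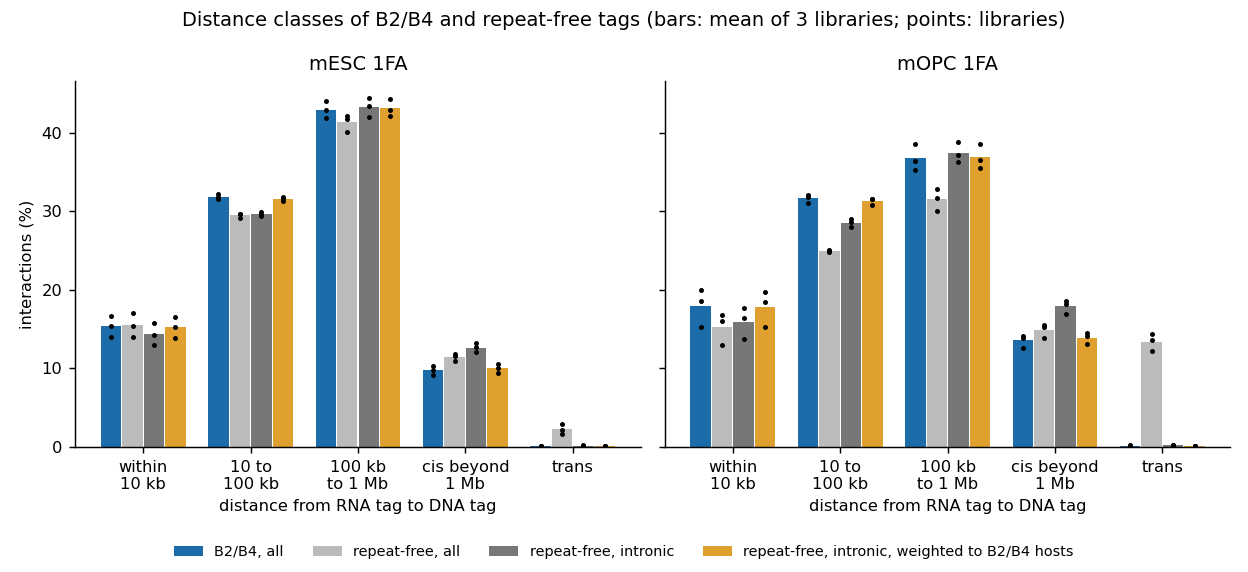
Share of interactions by distance between RNA tag and DNA tag, in percent, in mESC 1FA (left) and mOPC 1FA (right). Bars are means of 3 libraries and points are libraries, for B2 and B4 tags, all repeat-free tags, intronic repeat-free tags and intronic repeat-free tags weighted to the host transcripts of the B2 and B4 tags. The bars of B2 and B4 tags and of the weighted intronic tags are near each other in every class, and the trans class is tall only for all repeat-free tags of mOPC (12.2% to 14.4%).

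These differences were smaller or of the other sign once hosts were matched. The repeat-free tags were weighted so that each host transcript had the same share as among the B2 and B4 tags of that library, which could be done for 99.96% to 99.98% of the B2 and B4 tags of a 1FA library. The differences were then 0.26 points at 10 to 100 kb and 0.46 at 100 kb to 1 Mb, both still higher for B2 and B4 tags in 6 of 6 libraries (exact permutation p = 0.03125, adjusted 0.0521), and -0.0017 for trans. The other classes turned sign, to 0.094 points beyond 1 Mb (exact permutation p = 0.09375) and to -0.81 within 10 kb, lower in 6 of 6 (exact permutation p = 0.03125, adjusted 0.0521). With intronic tags on both sides as well, a setting chosen after the data were seen, they were 0.096 points at 10 to 100 kb, 0.32 at 100 kb to 1 Mb, 0.028 beyond 1 Mb, 0.012 for trans and -0.46 within 10 kb. The share within 10 kb was lower for B2 and B4 tags in 6 of 6 libraries and that at 100 kb to 1 Mb higher in 6 of 6 (exact permutation p = 0.03125, adjusted 0.0781, for each). Before weighting, intronic B2 and B4 tags lay beyond 1 Mb less often than intronic repeat-free tags in 6 of 6 libraries, by -3.29 points (exact permutation p = 0.03125, adjusted 0.0521). They lay within 10 kb more often in 6 of 6, by 0.923 points, and at 10 to 100 kb by 2.44 points (the same p and adjusted values). At 100 kb to 1 Mb the difference was -0.0636 points (exact permutation p = 0.625).

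Trans contacts met different DNA in the lines. In mESC 1FA, 0.0978%, 0.185% and 0.111% of B2 and B4 interactions were trans, and 63 of 68, 112 of 120 and 79 of 86 of them met the 25-kb bin of chromosome 17 that holds Gm26917, a locus carrying ribosomal RNA sequence. In mOPC 1FA the share was 0.185%, 0.179% and 0.192%, but 10 of 91, 11 of 86 and 20 of 94 met that bin. Repeat-free trans interactions differed in the same direction, with 10.1% to 19.2% of them in that bin in mESC 1FA and 0.876% to 1.83% in mOPC 1FA. This difference between the lines was thus not particular to B2 and B4 tags. Repeat-free trans shares were 1.67% to 2.98% in mESC and 12.2% to 14.4% in mOPC, of which Malat1 and Gm22973 supplied 79.1% to 89.0% and 93.0% to 95.0%. Malat1 is an abundant nuclear long noncoding RNA. Among intronic repeat-free tags the trans share was 0.0987% to 0.198% in mESC and 0.170% to 0.215% in mOPC, a range like that of B2 and B4 tags.

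The treated libraries kept few long contacts. Under actinomycin D the median distance on the same chromosome was 26361 and 27880 bases, against 106062 to 126329 bases in mESC 1FA, and each library held 1 trans interaction of a B2 or B4 tag. The 10 to 100 kb class took 39.9% of the B2 and B4 interactions and the 1 to 10 Mb class 1.13%, compared with 31.9% and 8.34% in mESC 1FA. Repeat-free tags had medians of 26048 and 27329 bases under actinomycin D. The ActD4 libraries are the smallest in the series.

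In the NPM libraries B2 and B4 tags stayed beside their own position. Within 1 kb lay 95.2% and 93.6% of B2 and B4 interactions in mESC and 97.0% and 96.5% in mOPC, against 84.0% and 85.6%, and 87.3% and 85.9%, of repeat-free interactions. Most of that gap was not seen among intronic tags, where the group means were 94.5% against 93.3% in mESC and 96.9% against 95.8% in mOPC. The median distance was 230 and 224 bases in mESC NPM and 212 and 245 bases in mOPC NPM, shorter in each library than the 251, 250, 235 and 271 bases of intronic repeat-free tags. Trans shares were higher than in 1FA, at 2.18% and 4.13% in mESC, where 192 of 218 and 587 of 618 interactions met the Gm26917 bin, and 0.982% and 1.02% in mOPC. Intronic repeat-free tags had trans shares of 2.55% and 4.704% in mESC NPM and 1.16% and 1.42% in mOPC NPM, and 72.0% and 89.9% of all repeat-free trans interactions in mESC NPM met that bin. In mOPC NPM 47 of 250 and 72 of 262 met that bin, and Anks1b alone supplied 25 and 26.

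1 copy stood out in the mOPC NPM libraries and was added after its values were seen. It is an ID-B1 element in an exon of Neat1, the long noncoding RNA on which paraspeckles form, with 95 and 82 interactions in mOPC NPM, 19, 23 and 20 in mOPC 1FA, and at most 7 in any mESC library. Its median distance to DNA on the same chromosome was 0.342 kb and 76.8% of its NPM interactions were on its own chromosome.
ID-B1 in Neat1, chr19:5835950-5836039, minus strand: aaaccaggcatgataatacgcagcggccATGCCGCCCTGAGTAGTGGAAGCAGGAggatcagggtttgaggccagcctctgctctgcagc

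By name, B4A, ID-B1 and B3 gave the most interactions and the B2-Mm names the fewest. Only tags that mapped to a single place were kept, and the part of this in that order was not tested. Values are CPM, the interactions of a name scaled to a common total of listed interactions per library, a measure of abundance among listed contacts and not per copy or per length. ID-B1 stood at 5380, 5112 and 5311 in mESC 1FA and 4039, 4017 and 4219 in mOPC 1FA, with no overlap. B3 stood at 4791, 5680 and 5670 against 4081, 4214 and 4531, and B2-Mm2 at 864, 947 and 986 against 686, 644 and 662. In both the lines did not overlap, and mESC library n1 was the lowest of its group. B4A stood at 5415, 4867 and 5124 against 5052, 5238 and 5430, so the lines overlapped.

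**Figure D3:**
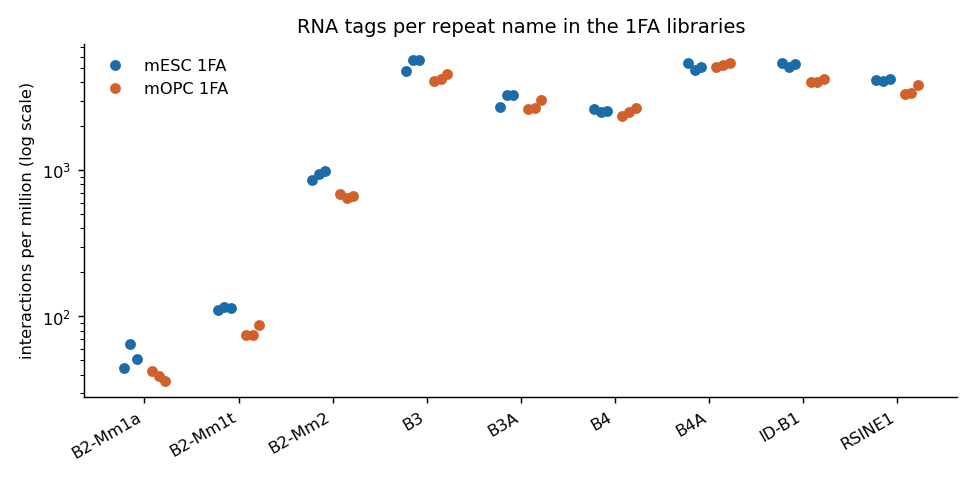
CPM, scaled interactions, of the 9 B2 and B4 repeat names in the mESC 1FA and mOPC 1FA libraries (points are libraries, log scale). Points of the lines do not overlap for B2-Mm1a, B2-Mm1t, B2-Mm2, B3, ID-B1 and RSINE1, higher in mESC 1FA, and overlap for B3A, B4 and B4A.

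In the limma fit over all repeat names, 5 of the 9 were lower in mOPC 1FA than in mESC 1FA and 0 were higher, beside 15.8% of all 721 names tested that were called lower. The 5 were ID-B1 (log2 difference -0.36, SE 0.0422, adjusted p = 8.5e-05), B2-Mm2 (-0.49, SE 0.0705, adjusted p = 0.000382), B3 (-0.33, SE 0.0671, adjusted p = 0.00276), B2-Mm1t (-0.53, SE 0.115, adjusted p = 0.00384) and RSINE1 (-0.25, SE 0.0555, adjusted p = 0.00494). The median over all names was 0.02. B2-Mm1a (-0.42, adjusted p = 0.0635) and B3A (-0.15, adjusted p = 0.151) did not pass, nor did B4 (-0.04) and B4A (0.03). Between 5 and 7 of the 9 were lower when any 1 library was left out, with B2-Mm1a (-0.54) and B3A (-0.24) added without mESC 1FA n1. So the B4 family split, with ID-B1 and RSINE1 lower in mOPC and B4 and B4A near 0. The B2 family made up 32.7%, 37.7% and 36.9% of the B2 and B4 interactions of mESC 1FA, where library n1 stood apart, and 33.7%, 33.5% and 34.1% of those of mOPC 1FA.

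With 2% instead of 1% formaldehyde 0 of the 9 names were called, beside 0% of 718 names. At an unadjusted p under 0.05 there were 34 names, 2 of them B2 or B4 names. Under actinomycin D 7 of the 9 were lower, beside 18.6% of 722 names, with log2 differences from -0.30 to -0.54. The median over all names was -0.37 there, and with TMM scaling 0 of the 9 were called and 6 of the 7 turned positive, from 0.03 to 0.09, so that their fall was close to that of the median repeat name. Without mESC 1FA n3 0 of the 9 were called, and without any other library 4 to 6.

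After protein removal the log2 difference was below 0 for the 9 names in mESC NPM and for each but B3A (0.01) in mOPC NPM. In mESC NPM 0 of the 9 were called, beside 12.7% of 724 names, while 5 of the 9 had an unadjusted p under 0.05. In mOPC NPM 2 were lower, beside 11.2% of 689 names: B4A (log2 -0.30, adjusted p = 0.0152) and B2-Mm2 (-0.31, adjusted p = 0.0291, no longer called with TMM scaling). Without any 1 of the 3 mOPC 1FA libraries 0 of the 9 were called there. Without mESC NPM n2 3 of the 9 were lower in mESC NPM, and without mESC 1FA n1 1 was. The test of the difference between the lines in their NPM effect called 0 of the 9, beside 0.77% of 779 names.

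The names also differed in reach. In mESC 1FA 10.3% of B4A interactions and 9.31% of B4 interactions lay at 1 to 10 Mb, against 7.49% for B3, 7.40% for RSINE1, 7.12% for B2-Mm2 and 4.59% for B2-Mm1t. In mOPC 1FA these names had 13.3%, 13.2%, 10.1%, 10.5%, 9.10% and 6.96%, with B4A and B4 again the highest. These are means of 3 libraries, given as a description. The names were not matched for host transcript here, and the part of the hosts in these shares was not tested.

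Where the tags fell along a copy differed between the names and less between the lines. Copies were cut into 10 parts of equal length. The centres of 35.9% of B2-Mm1a tags lay in the first part and 29.3% in the last. B2-Mm1t had 26.5% and 30.7% there, and B2-Mm2 16.3% and 29.5%. Inside the copy, part 7 held 8.22%, 10.5% and 12.1% of the tags of these 3 names. The tags are short and had to map to a single place, and the part of this in the pattern was not tested. B3 had 11.6% in the first part and 11.5% in the last, RSINE1 peaked in part 5 with 16.7%, and ID-B1 in the last with 14.4%. Interactions per copy ran from 1.83 for B2-Mm1a to 6.18 for B4A.

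**Figure D4:**
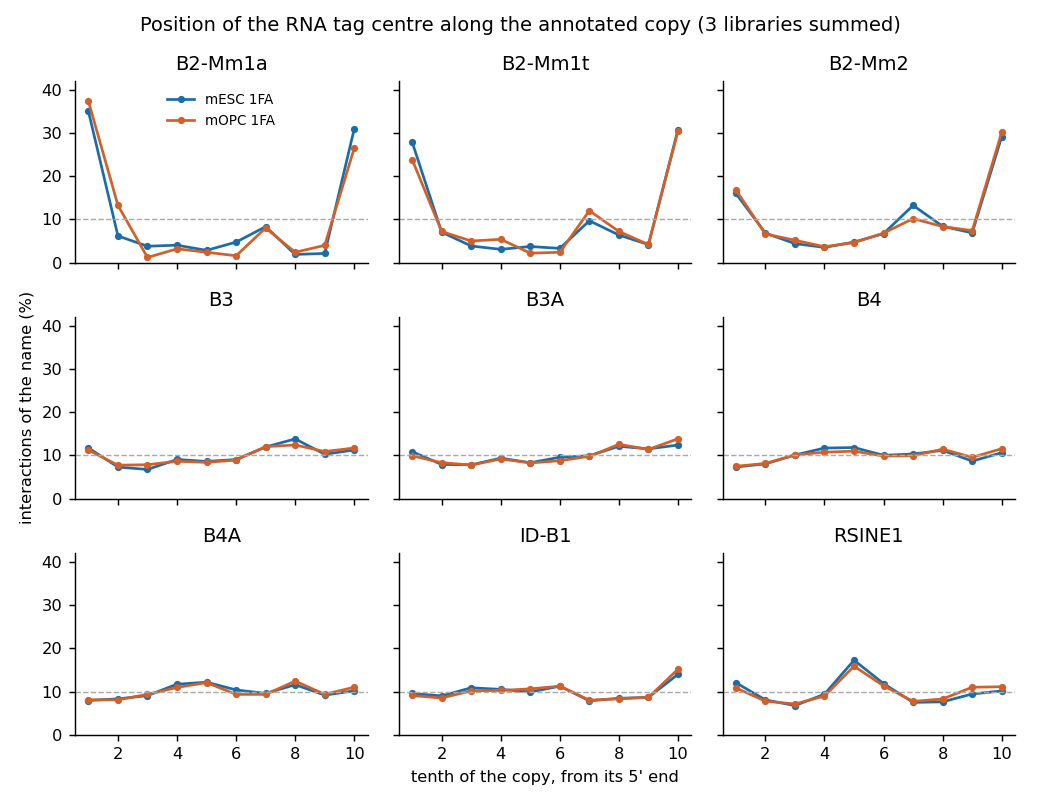
Position of the RNA tag centre along the annotated copy, in 10 equal parts from the 5′ end, as a percentage of the interactions of each of the 9 repeat names, with the 3 libraries of each line summed; the dashed line marks an even spread of 10%. The B2-Mm names rise at both ends (35.9% and 29.3% for B2-Mm1a), RSINE1 peaks in part 5 (16.7%) and ID-B1 in the last (14.4%), and the curves of mESC 1FA and mOPC 1FA lie close together for the names with the most interactions.

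The B box of the internal promoter was looked for as GTTCNANNC in each copy seen in the 1FA libraries. On the RNA strand 76.7% of B2-Mm1a copies, 73.4% of B2-Mm1t copies and 61.8% of B2-Mm2 copies held it, against 17.6% of B3, 5.85% of B3A, 21.1% of ID-B1, 15.0% of B4, 11.9% of RSINE1 and 8.09% of B4A copies. Windows of the same length 1 copy length away held it in 4.61% to 7.12% of cases on that strand, and the copies held it on the other strand in 0.274% to 2.15% of cases. A match is a description of letters, not a site. The names with the most interactions were mostly without these letters. Tags had to map to a single place, and the part of this in the counts of the names was not tested. A B2-Mm2 copy in an intron of Dido1 shows the motif in a copy with 17, 12 and 12 interactions in mESC 1FA and 15, 3 and 3 in mOPC 1FA, and was added after its values were seen.
B2-Mm2 in Dido1, chr2:180686142-180686297, minus strand: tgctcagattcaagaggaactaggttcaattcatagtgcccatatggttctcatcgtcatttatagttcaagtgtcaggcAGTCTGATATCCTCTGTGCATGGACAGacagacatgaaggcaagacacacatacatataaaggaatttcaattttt

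B2 and B4 tags came from many hosts. A library of mESC 1FA had 6700 to 6975 host transcripts and one of mOPC 1FA 5498 to 5816, which is 47.6% to 50.2% of the transcripts listed there. The 10 hosts with the most tags held 4.61% to 4.80% of the B2 and B4 interactions in mESC 1FA and 6.59% to 7.19% in mOPC 1FA.

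How much of a transcript's contacts came from B2 and B4 copies was compared between the lines. Among transcripts with at least 1000 interactions in a group, the median B2 and B4 share was 2.53% over 1807 transcripts in mESC 1FA (quartiles 1.55% and 3.92%) and 2.27% over 1172 in mOPC 1FA (1.38% and 3.68%). For the 691 transcripts in both, with the libraries of each line pooled, Pearson's r was 0.936 and Spearman's rho 0.922, across transcripts, which are not independent replicates and share their gene sequence. Single libraries gave Pearson's r of 0.901 to 0.928 across the lines (97 to 127 transcripts), below the 0.931 to 0.953 of every pair of replicate libraries (308 to 466 transcripts). The medians over these 691 were 2.41% in mESC and 2.59% in mOPC, and the share was higher in mOPC for 394 and in mESC for 289. So for the same transcripts the order of the lines was not that of the shares over all interactions.

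**Figure D5:**
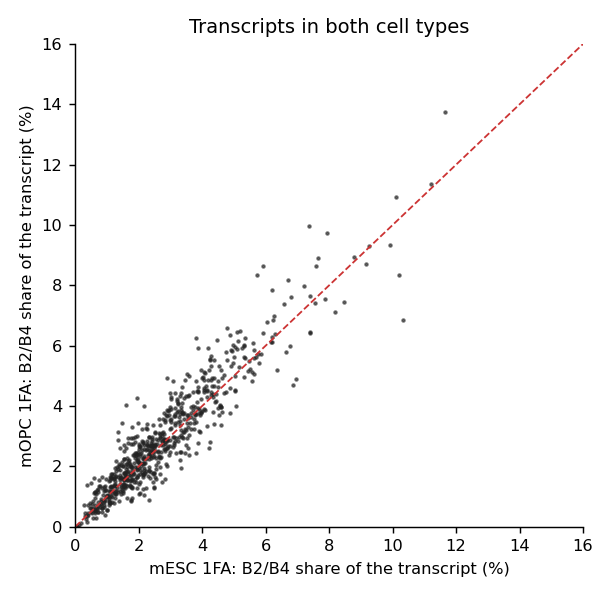
Share of a transcript's interactions that came from B2 and B4 tags, in percent, in mESC 1FA (x axis) and mOPC 1FA (y axis) for the 691 transcripts with at least 1000 interactions in both; the dashed line marks equal shares. Points follow the line from 0% to above 10% (Pearson's r 0.936, a description across transcripts).

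The highest shares were 12.5% in mESC 1FA for Cnot10, a subunit of the CCR4-NOT deadenylase complex, followed by Xrn1, a 5′ to 3′ exoribonuclease (12.1%), Spats2 (11.7%), Nphs1 (11.4%) and Lmtk2, a kinase (11.2%). In mOPC 1FA they were 15.5% for Gm38431, 13.8% for Spats2, 13.2% for Yars, the tyrosyl-tRNA synthetase, 11.4% for Lmtk2 and 11.2% for Olfm2. Spats2 and Lmtk2 were thus high in both lines. With genes cut into 4 groups of equal size by length, the longest group had the lowest median share, 2.06% in mESC 1FA and 1.78% in mOPC 1FA.

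Hosts with many B2 and B4 tags in mESC 1FA are given first. They were chosen for their counts in that line, so that they were higher there and did not overlap is a description. The libraries of mESC 1FA were larger than those of mOPC 1FA, which the fit takes into account. Wwox, a WW-domain oxidoreductase gene at a fragile site, had 559, 402 and 517 B2 and B4 interactions in mESC 1FA and 80, 75 and 111 in mOPC 1FA. Tead1, a transcription factor of the Hippo pathway, had 333, 338 and 445 against 21, 13 and 16. In both hosts every mESC library was above every mOPC library. B2 and B4 tags were 2.81% of Wwox and 3.82% of Tead1 interactions in mESC 1FA, and 3.07% and 3.47% in mOPC 1FA. Pitpnc1, a phosphatidylinositol transfer protein, had 360, 384 and 470 against 77, 86 and 74, and its share of B2 and B4 tags was 7.60% in mESC and 8.64% in mOPC, so that its tags fell with its contacts as a whole. Gli2, a transcription factor of the Hedgehog pathway, had 254, 265 and 284 in mESC 1FA and was listed at 0 in the 3 mOPC 1FA libraries.

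Fgfr2, a fibroblast growth factor receptor, had 480, 412 and 522 against 62, 68 and 69, and 51.1% of its B2 and B4 tags also lay in Ctbp2. Arl15, a small GTPase gene, had 306, 203 and 293 against 26, 26 and 38. Gm20388, an annotated gene, had 234, 248 and 248 against 107, 117 and 83, and 16.4% of its tags also lay in Gse1. Ctbp2 and Gse1 are the overlapping genes with the most of these tags, and tags in any further overlapping gene were not counted. In Fgfr2, Arl15 and Gm20388 the lines did not overlap. The Gm20388 difference (log2 -0.93, limma adjusted p = 0.000596) was not called with TMM scaling (-0.38, adjusted p = 0.07).

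The leading hosts of mOPC 1FA, chosen for their counts in that line, included 3 noncoding RNA genes. Their direction and lack of overlap, here and in the next paragraph, are a description. 5031425E22Rik had 459, 424 and 517 B2 and B4 interactions in mOPC 1FA and 8, 4 and 8 in mESC 1FA, and 2610035D17Rik had 394, 447 and 352 against 21, 9 and 4. Pvt1, the long noncoding RNA beside Myc, had 311, 329 and 382 against 195, 179 and 267, and was high in both lines without overlap. Auts2, a gene of neural development, was the only host among the 8 highest of both lines, with 382, 455 and 512 in mOPC and 342, 274 and 362 in mESC.

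Bcas1, a gene expressed in oligodendrocytes as they begin to myelinate, had 312, 316 and 291 in mOPC 1FA and 1, 0 and 0 in mESC 1FA. B2 and B4 tags were 7.40% of its mOPC interactions. Anks1b, a synaptic scaffold gene, had 383, 397 and 423 against 0, 2 and 6. Ppp1cb, a catalytic subunit of protein phosphatase 1, had 315, 322 and 189 against 25, 14 and 11, and Babam2, a subunit of the BRISC deubiquitinase, 240, 257 and 269 against 36, 23 and 42. In all 4 the mOPC libraries were above every mESC library, as the choice of hosts favoured. Bcas1 and Anks1b passed the filter through mOPC 1FA alone.

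Between the lines the host fit called 1363 of 1943 hosts, or 70.1%, with 474 higher and 889 lower in mOPC. That split depended on the scaling: the median over all hosts was -0.61, and with TMM scaling, which brought it to -0.07, 624 were higher and 595 lower. Beside a background of 70.1% a call on 1 host says little. The next 10 hosts were chosen for their fitted change, as called hosts without overlap of the lines, and each passed the filter through its higher line alone, so their direction was set by the choice and the filter and their values are a description. Among hosts listed in all 6 libraries with a mean of at least 50 interactions in the higher line, the largest fitted differences towards mOPC were in 5031425E22Rik (log2 6.41), Dscam, a neural adhesion molecule (6.00), 2610035D17Rik (5.68), Plcb1, a phospholipase C (5.64), and Ank2, an ankyrin (5.24). Dscam and Plcb1 had 1 to 4 interactions per mESC 1FA library, so the size of their difference is uncertain. The 5 largest differences towards mESC were in Cdyl2, Mgmt, Osbpl10, Clybl and Rbpj, each with 41 to 113 interactions per mESC 1FA library and 1 to 3 per mOPC 1FA library. Rbpj is the DNA-binding factor of the Notch pathway and Mgmt repairs alkylated guanine.

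The summed levels of the pluripotency and oligodendrocyte progenitor lists ran with the cell type labels. Of 20 pluripotency genes, 8 had any B2 or B4 tag and 5 passed the filter of 10 interactions in 3 libraries. Of these 5, 4 passed through mESC 1FA alone (Esrrb, Tet1, Tfcp2l1 and Sall4), so that their lower level in mOPC was set by the filter and is given as values without a test. Esrrb, an orphan nuclear receptor of naive pluripotency, had 201, 143 and 151 interactions in mESC 1FA and was listed at 0 in mOPC 1FA, as were Tfcp2l1 (114, 79 and 91) and Sall4 (17, 10 and 14). Tet1, which oxidises methylated cytosine, had 112, 97 and 168 against 2, 2 and 6. The summed level of the list was 232 to 252 CPM in mESC 1FA and 5.43 to 8.004 CPM in mOPC 1FA. Pou5f1, Nanog and Sox2, the defining factors, had no B2 or B4 tag in any library.

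Of 22 oligodendrocyte progenitor genes, 18 had any B2 or B4 tag, and 9 passed the filter. Of these 9, 8 passed through mOPC 1FA alone, so that their direction was set by the filter too, and Xylt1 passed in both lines. Lhfpl3 had 198, 196 and 220 interactions in mOPC 1FA, Ptprz1, a receptor phosphatase, 77, 80 and 90, and both were listed at 0 in mESC 1FA. Sox6, a transcription factor, had 178, 200 and 188 against 2, 1 and 0, and Xylt1, a proteoglycan-synthesising enzyme, 231, 264 and 260 against 14, 16 and 24. The summed level was 434 to 534 CPM in mOPC 1FA and 9.37 to 11.6 in mESC 1FA. Pdgfra, a defining receptor of these cells, was listed at 0 in the 3 mOPC 1FA libraries for B2 and B4 tags.

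The levels of lists for other cell types follow. The 10 myelin genes summed to 2.26 to 3.80 CPM in mOPC 1FA, the 6 astrocyte genes to 0 to 0.949 and the 6 microglia genes to 0.949 to 2.26, and 0 of their members were tested. Of 7 neuron genes 2 passed the filter, both through mOPC 1FA alone: Map2 (3, 0 and 1 in mESC 1FA, 37, 34 and 43 in mOPC 1FA) and Syt1 (0, 0 and 1 against 14, 13 and 15). Stmn2, another neuron gene, did not pass and had 8, 9 and 12 in mESC 1FA and 0, 0 and 0 in mOPC 1FA. Of 7 primitive endoderm genes 1 passed, through mESC 1FA alone: Lama1, a laminin chain, with 31, 46 and 36 against 0, 0 and 1. The part of such cells in the results was not tested.

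Lists of regulators linked to SINE elements in background knowledge are read against all hosts, of which 45.8% were lower in mOPC and 24.4% higher. With TMM scaling 595 of all 1943 hosts were lower and 624 higher. Of 11 genes of Polycomb complex PRC2, 6 were tested, 5 were lower in mOPC and 0 higher (4 lower and 0 higher with TMM scaling). The counts are a description, since 5 of the 6 passed the filter through mESC 1FA alone, which favours lower calls. The other, Jarid2, a PRC2 cofactor that is also in the pluripotency list, had 200, 234 and 282 against 10, 13 and 10. Of 15 genes of CTCF, cohesin and the ChAHP complex, which binds at SINEs, 11 were tested, 6 of them through mESC 1FA alone, and 5 were lower, near the share of all hosts, and 0 higher. The lower genes Pds5a, Wapl, Ctcf and Cbx1 passed through mESC 1FA alone, which favours lower calls, so these counts are a description. Of the 5 genes that passed in both lines only Stag1 was lower. With TMM scaling 4 of the 11 were lower and 3 higher, near the shares of all hosts under that scaling. Stag1, a cohesin subunit, had 73, 59 and 84 against 25, 26 and 18 and was lower under both scalings, while Adnp, a ChAHP subunit, had 15, 14 and 19 against 11, 12 and 9 and was called under neither.

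Of 15 heat shock genes 2 passed the filter, both through mESC 1FA alone, among them Hspa4, a chaperone, with 36, 31 and 47 against 7, 7 and 7. Over the lists the share called stayed to be read against 70.1% of all hosts.

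With 2% formaldehyde 0 of 1926 hosts were called (0%), while 141 had an unadjusted p under 0.05, and 2 were called without mESC 1FA n3 or without 2FA n1. Replicate numbers of the 1FA and 2FA libraries paired the samples, and with the number as a block 5 hosts were called. Wwox had 371, 382 and 463 interactions in 2FA and Fgfr2 420, 336 and 442, both overlapping their 1FA values.

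Under actinomycin D, of 1879 hosts 84, or 4.47%, were called, 20 higher and 64 lower, around a median of -0.39. Only 166 and 68 hosts had at least 10 B2 and B4 interactions in the ActD4 libraries, against 1795 to 2085 in the mESC 1FA libraries. Most hosts thus passed the filter through mESC 1FA alone, which favours lower calls, so this split and median are a description. The split by direction turned with the setting: 35 higher and 49 lower with TMM scaling, 239 and 28 with a prior count of 2 and 2088 and 254 without the filter. These calls rested on single libraries: 1, 2 and 4 hosts passed without mESC 1FA n1, n2 and n3, and 786 and 677 without ActD4 n1 and n2. Wwox had 18 and 8 B2 and B4 interactions and Mgmt had 2 and 1. Neither had 10 in both ActD4 libraries, so both passed the filter through mESC 1FA alone and are given as values without a test. Gli2, with 73 and 46, was higher (0.83, SE 0.14, adjusted p = 0.00453), as were Osbpl10, with 35 and 21 (1.30, SE 0.22, adjusted p = 0.00507), and Gm20388, with 66 and 40 (0.79, SE 0.14, adjusted p = 0.00899). These 3 were called with TMM scaling as well. Gli2 and Gm20388 were also chosen for their counts in ActD4, which favours a rise. B2 and B4 tags were 4.6998% of Gli2 and 1.48% of Gm20388 interactions in ActD4, against 5.19% and 1.77% in mESC 1FA. Their tags thus rose with the contacts of these hosts as a whole. In Osbpl10 the share was 9.89% in ActD4 against 8.22% in mESC 1FA. Pitpnc1, the host with 63 and 38, had a difference of -0.000576 (adjusted p = 0.997). Fgfr2 (-0.66) and Arl15 (-0.75) were called lower, but not with TMM scaling. Both were chosen for their counts in mESC 1FA, which favours a fall.

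In mESC NPM 57 of 1880 hosts, or 3.03%, were called, 7 higher and 50 lower, but 1, 0 and 3 were without mESC 1FA n1, n2 and n3, and 440 and 665 without NPM n1 and n2. This split turned too: 13 higher and 14 lower with TMM scaling, 80 and 45 with a prior count of 2, 1155 and 233 without the filter and 878 and 6 without contacts with the own gene. The mESC NPM libraries had 97 and 235 hosts with at least 10 interactions, so here too most hosts passed the filter through mESC 1FA alone. Fgfr2 had 20 and 45 interactions (log2 difference -1.58, SE 0.21) and Tead1 had 18 and 42 (-1.36, SE 0.23). With TMM scaling the differences were -1.29 and -1.07. Both hosts were chosen for their counts in mESC 1FA, which favours a fall, so these values are a description. B2 and B4 tags were 1.87% of Fgfr2 and 3.31% of Tead1 interactions in mESC NPM, against 2.03% and 3.82% in mESC 1FA. Auts2, Wwox and Pitpnc1 led the hosts of these libraries with 33 and 51, 47 and 58, and 49 and 52. In mOPC NPM 256 of 1270 hosts, or 20.2%, were called, 13 higher and 243 lower, and with TMM scaling 29 were higher and 28 lower. Hosts with at least 10 interactions numbered 545 and 524 in mOPC NPM and 1247 to 1281 in mOPC 1FA. Many hosts thus passed the filter through mOPC 1FA alone, which favours lower calls. Without mOPC 1FA n2 and n3 the calls were 45 and 109. Ppp1cb, with 40 and 46 interactions, was lower under both scalings (-1.85, SE 0.20), as was Babam2, with 42 and 51 (-1.68, SE 0.19). Both were chosen for their counts in mOPC 1FA, which favours a fall, so these values are a description. B2 and B4 tags were 4.63% of Ppp1cb and 1.40% of Babam2 interactions in mOPC NPM, against 5.54% and 1.94% in mOPC 1FA. Auts2, with 221 and 193, 5031425E22Rik, with 203 and 149, and Bcas1, with 129 and 176, led the hosts there, and Bcas1 was not called (-0.25, adjusted p = 0.325).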

How the data were processed

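RNA-DNA contacts were measured by RADICL-seq in 15 libraries, whose groups were taken from the labels. The authors had split reads into their tags, discarded ribosomal RNA and duplicated molecules, and aligned with BWA 0.7.15-r1140 to mm10 (base calls with CASAVA 1.8), kept tags that mapped to a single place and reduced each to its centre. They assigned RNA tags by strand to GENCODE genes, intersected them by strand with RepeatMasker elements, and kept interactions whose transcript and 25-kb DNA bin were significant with the replicates of a condition pooled. The deposited files hold positions and labels of these interactions, with no counts, so their totals (251802 to 2832717) are not depth and a shallower library has larger error. The authors' p-values in the same files were not used, and 0 columns of other samples were left aside. The labels and the methods name the replicates as separate samples, and p-values measure the spread between these libraries only.

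An interaction was a distinct pair of tag positions. Symbols came from GENCODE M21 and matched 2445 of 2447 tested hosts. Sequences were read from GRCm38. Shares were compared between groups by exact permutation tests and distance classes by exact sign-flip tests over libraries, both two-sided. Interactions per repeat name and per host were turned into log2 CPM (prior count 0.5, CPM being relative to all listed interactions of the library) and tested with limma 3.58.1 (R 4.3.3, trend) after a filter of at least 10 interactions in as many libraries as the smaller group held, with Benjamini-Hochberg adjustment at 0.05 over all names or hosts. Standard errors are those of limma. The script was tested on simulated data. TMM scaling, no filter, a prior count of 2, a replicate block, leaving out each library, contacts with the own gene, Malat1 and Gm22973, or the ribosomal RNA bin, requiring every listed repeat to be B2 or B4, counting each pair once, and weighting to hosts were tried as alternatives. Intronic tags, protein-coding transcripts and intronic tags weighted to hosts were added after the data were seen. A restriction to repeats on the strand of the tag changed nothing, as every listed repeat lay on it. Counting used Python 3.11.15, numpy 2.4.6, pandas 2.3.3 and scipy 1.17.1, and figures matplotlib 3.10.9.

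Named hosts were the 8 with the most B2 and B4 interactions in each 1FA group, the 3 with the most in ActD4 and each NPM group, and the 5 largest rises and falls between the lines among called hosts that were listed in all 6 libraries, did not overlap and had a mean of at least 50 interactions in the higher line. Copies were the 3 with the most interactions in each 1FA group outside UTRs. The members, lists and tests were chosen with earlier results of these data known. The result of 1 further gene list is not reported here. The deviations of mESC 1FA and 2FA libraries of the same replicate number from their group means correlated over 9763 transcripts (r = 0.307, 0.182 and 0.259), so these numbers were taken to pair the libraries. In the other comparisons libraries shared only a number.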

Additional observations from a re-analysis of the deposited data

How the results depend on the processing

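The direction of the share differences held under the alternatives run except in the NPM groups. mESC NPM minus 1FA was 0.181 points among intronic tags and 6.91 with each transcript and bin pair counted once, and mOPC NPM minus 1FA was 11.5 with pairs counted once. For these shares, pairs counted once means the share of pairs with at least 1 B2 or B4 tag. It rises with the number of interactions per pair, which was higher in the NPM libraries. Without contacts with the own gene the mESC and mOPC NPM differences were -0.989 and -1.63, on 238 to 652 B2 and B4 interactions per NPM library. Without Malat1 and Gm22973 mOPC minus mESC 1FA was -0.192 (-0.182 among protein-coding transcripts). With pairs counted once mOPC minus mESC was -1.43, 2FA minus 1FA 1.27 and ActD4 minus 1FA -3.00, and among intronic tags ActD4 minus 1FA was -0.244 and mOPC NPM minus 1FA -0.0102. With pairs counted once the 2FA and ActD4 groups each overlapped mESC 1FA. The ActD4 libraries stood at 17.4% and 11.2% there, against 16.2% to 18.4% in mESC 1FA, so that direction rested on 1 library. The causes were not tested. Leaving out 1 library gave shares of -0.417 to -0.305 (mOPC minus mESC), 0.162 to 0.239 (2FA), -0.577 to -0.497 (ActD4), -0.368 to -0.211 (mESC NPM) and -0.315 to -0.167 (mOPC NPM).

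Distance differences (within 10 kb, 10 to 100 kb, 100 kb to 1 Mb, beyond 1 Mb, trans) passed the adjusted threshold only where at least 4 of the 5 classes reached the smallest p of 6 libraries, so a class can miss it through the others. That beyond 1 Mb missed it while lower in 6 of 6 libraries among intronic tags and with pairs counted once. Among intronic tags the 5 were 0.923, 2.44, -0.0636, -3.29 and -0.0174. With pairs counted once they were 0.511, 11.7, 1.08, -8.51 and -4.75. Weighted to hosts the 5 were -0.813, 0.258, 0.463, 0.0940 and -0.00170, and with intronic tags as well -0.461, 0.0962, 0.325, 0.0278 and 0.0121. Without contacts with the own gene they were -0.359, 5.62, 7.80, -1.47 and -11.6, and without Malat1 and Gm22973 0.000143, 2.37, 0.616, -2.51 and -0.477. Leaving out 1 library gave 0.864 to 1.57, 4.04 to 5.03, 2.92 to 3.84, -1.56 to -1.45 and -8.92 to -6.38, where 5 libraries cannot pass (smallest exact permutation p 0.0625).

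Counts of calls moved by over 1.5 times as follows. With TMM scaling, 33 names (26 higher) passed under ActD4, 27 hosts in mESC NPM and 57 in mOPC NPM. Without the filter, 2836 hosts passed between the lines, 332 names and 2342 hosts under ActD4, 1388 hosts in mESC NPM, 9 in mOPC NPM and 14 names in the test of the NPM difference. A prior count of 2 gave 267 hosts under ActD4, 125 in mESC NPM and 17 names in the NPM difference. Without contacts with the own gene, 2 hosts passed in 2FA, 202 names and 884 hosts in mESC NPM and 252 names in mOPC NPM. With the replicate block, 5 hosts passed in 2FA, where the numbers pair the libraries. Elsewhere, where samples share only a number, the block gave 62 names and 44 hosts under ActD4, 16 and 31 in mESC NPM and 160 hosts in mOPC NPM.

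Leaving out 1 library gave 206 to 290 names between the lines, 0 to 0 in 2FA, 18 to 227 under ActD4, 9 to 171 in mESC NPM, 24 to 183 in mOPC NPM and 3 to 71 for the NPM difference (71 without mESC NPM n2, 16 without mESC 1FA n1, 3 without mOPC 1FA n1 or n3). Names under ActD4 were 18 without mESC 1FA n3, 81 without n2 and 92 without n1. In mESC NPM they were 61, 9 and 9 without mESC 1FA n1, n2 and n3 and 171 without NPM n2, and in mOPC NPM 24, 26 and 28 without mOPC 1FA n1, n2 and n3 and 166 and 183 without NPM n1 and n2. It gave 1339 to 1554, 0 to 2, 1 to 786, 0 to 665 and 45 to 342 hosts. A lone library left in a group is assumed to vary like the other group. Under ActD4 with TMM scaling B3A was 0.0727, B3 0.0749, B4A 0.0657, B4 0.0308, ID-B1 0.0858 and RSINE1 0.0283, and in mOPC NPM B3A was -1.93 without contacts with the own gene. Of 892 values of single names and hosts under alternatives, 34 lost and 31 gained the threshold. The ActD4 and NPM groups had the fewest listed interactions per library and 2 libraries each, and both limit their comparisons.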
